A study of Mus musculus with 16 samples.

Results

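*Slpi*, *Wfdc2*, *Wfdc3*, *Wfdc12* and *Wfdc18* encode small secreted proteins built around the whey acidic protein (WAP) domain, a fold held together by disulfide bonds. The 5 genes were chosen by name from the 17721 genes of a single-cell RNA-seq table of the pubertal mouse mammary gland, with results of these data already known. *Slpi* had been singled out in these same libraries for its level in nipple basal cells, so that its basal levels across locations are given as a description with no test. The samples were single fragments of C57BL/6 mammary gland dissected as 4 nipples, 6 ducts and 6 terminal end buds (TEBs, the bulbous tips of the growing ducts), from untreated mice about 5 weeks old. Per the study the animals were *K14-Cre/R26-mTmG*, in which the keratin 14 promoter, active in basal epithelium, drives Cre and a membrane reporter changes colour where Cre has acted. Its methods also name wild-type mice for the dissections, and the labels give neither the transgenes nor the mouse of a fragment. Fragments, named as in the labels N21 to N24, D31 to D62 and T31 to T43, were taken as the replicates. The p-values therefore measure the spread between fragments, some of which may share an animal.

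Proteins of this family are known as inhibitors of serine proteases and as antimicrobial factors of wet epithelial surfaces. SLPI, the secretory leukocyte protease inhibitor, blocks neutrophil elastase and cathepsin G. WFDC2, also called HE4, is a secreted epithelial protein used as a serum marker in ovarian cancer, and *Wfdc18* (also *Expi*) encodes an extracellular proteinase inhibitor known from the mammary gland. The bilayered mammary duct holds contractile basal cells outside and luminal cells inside, the latter either hormone sensing (ER+) or progenitor-like and secretory (ER-).

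Of 1419 cells in the table, 1317 passed filters on spike-in share, UMIs and detected genes. They comprised 342 nipple, 501 duct and 474 TEB cells from fragments with 1856141 to 5233122 UMIs, a UMI being the molecular tag that counts 1 captured transcript. Clustering, carried out without any WAP family gene, gave 294 basal, 426 ER+ luminal, 177 ER- luminal, 252 fibroblast and 78 myeloid cells, each "-like" by markers, while 90 cells were left unnamed. The nipple and duct basal cells lay in 1 cluster (96 and 115 cells) and the TEB basal cells in another, which held 82 TEB cells and 1 nipple cell. The summed level of 8 basal markers was 16557 to 19026 CPM (UMIs per 1000000 UMIs of the same cells) in nipple basal cells, 19096 to 23882 in duct and 4428 to 8025 in TEB. Levels are given below as the CPM of all cells of a class in a fragment, as mean ± SD over fragments with at least 5 such cells. Tests across locations used edgeR on the summed counts, with p-values adjusted over all genes, and a difference was called at an adjusted p under 0.05.

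Of the 5 genes, 4 lie on mouse chromosome 2 (GRCm38, GENCODE M21) within 556.7 kb. *Wfdc12* is at 164189231 to 164190608 on the minus strand, *Slpi* at 164354070 to 164389095 on the minus strand, *Wfdc2* at 164562413 to 164568510 on the plus strand and *Wfdc3* at 164731180 to 164745931 on the minus strand. *Wfdc18* stands apart, on chromosome 11 at 83709015 to 83711348 on the plus strand, 2746 bases after the end of its family member *Wfdc17*. *Wfdc12* overlaps the antisense gene *A730032A03Rik*, and since strand use in counting is not given in the sources used here, reads of that pair could not be told apart. The 30 bases from 35 to 6 upstream of each annotated start (RefSeq, GRCm38.p6, read on the gene's strand) are shown because neighbours in 1 gene cluster were found in different cell classes. They are chr2:164356513-164356542 (minus) for *Slpi*, chr2:164562680-164562709 (plus) for *Wfdc2*, chr2:164743273-164743302 (minus) for *Wfdc3*, chr2:164190564-164190593 (minus) for *Wfdc12* and chr11:83708969-83708998 (plus) for *Wfdc18*. On chromosome 2 the windows lie inside the GENCODE span of their gene, which starts further upstream. Capitals mark TATAAA, searched on both strands.
Slpi: cttgcaatgtccctctgctgataacttcca
Wfdc2: gagtgcttaaatcccccccatcctggctgc
Wfdc3: tgtgctctttggtagtgccaggaaatttcc
Wfdc12: agcctcggcaccagcaccagcaccagcctc
Wfdc18: gaaaTATAAAaagagtcaagttctcagcat
In this window *Wfdc18* held the motif, 31 bases before its start, and the other members did not hold those letters. Of 32851 RefSeq promoters, 2.61% held it there.

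Over all locations together each gene was concentrated in 1 epithelial class, and the leading class of *Slpi* changed with location. Basal cells held 64.9% of the 7636 *Slpi* UMIs, with 18.9% of all UMIs in the data. In nipple they held 88.7% of 5483 *Slpi* UMIs, whereas in TEB they held 0.944% of 1801. There ER+ luminal cells held 82.5%, with 38.8% of all TEB UMIs. In duct *Slpi* was not concentrated, as ER+ luminal cells held 47.7% and basal cells 19.9% of 352 UMIs. Those classes had 48.1% and 18.7% of all duct UMIs. ER+ luminal cells held 86.1% of 45550 *Wfdc2* UMIs, 85.2% of 4364 *Wfdc3* UMIs and 90.2% of 2317 *Wfdc12* UMIs, with 37.2% of all UMIs. ER- luminal cells held 76.6% of 62541 *Wfdc18* UMIs, with 12.6% of all UMIs. Because the classes were built from the same cells, these shares are a description.

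**Figure D1:**
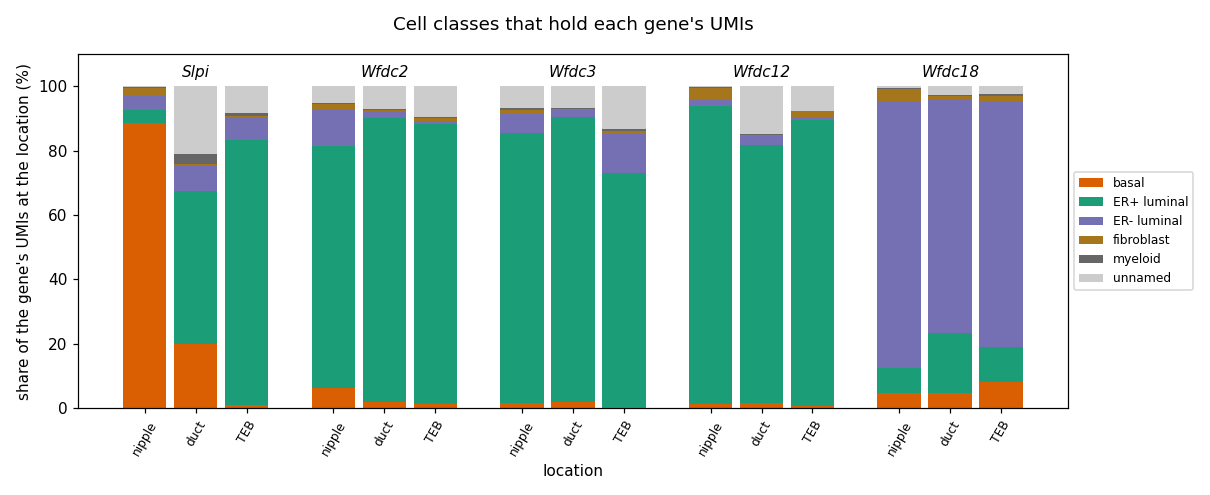
Share of each gene's UMIs (percent, vertical axis) held by each cell class, with 1 bar for each gene at nipple, duct and TEB. *Slpi* moves from basal cells in nipple (88.7%) to ER+ luminal cells in TEB (82.5%), while the other genes keep 1 leading class at every location. In duct ER+ luminal cells hold 47.7% of *Slpi* UMIs, near their 48.1% of all duct UMIs.

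In nipple basal cells *Slpi* reached 2157, 1597, 2308 and 2997 CPM in the 4 fragments, a mean of 2265 ± 576 (SD, n = 4). In duct basal cells it was 0 to 72.3 CPM with a median of 10.6 (19.7 ± 26.3, SD, n = 6), and in TEB basal cells 0 to 9.91 CPM with a median of 4.49 (4.60 ± 4.78, SD, n = 6). Every nipple fragment lay far above every duct and TEB fragment, and duct and TEB overlapped. The fitted log2 differences were 9.03 (nipple minus TEB), 6.68 (nipple minus duct) and 2.35 (duct minus TEB), the first falling to 7.58 and the last to 0.78 with each cell thinned to 5000 UMIs. Without D51 nipple minus duct was 8.01 and duct minus TEB 1.02. These values chose the gene and carry no test.

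The nipple signal was spread over many basal cells. At least 1 *Slpi* UMI was found in 80 of 97 nipple basal cells (82.5%, exact binomial 95% interval 73.4 to 89.4), with a median of 27 UMIs per cell and 62 cells at 10 or more. With each cell thinned to 5000 UMIs the share was 74.2%. Of 115 duct and 82 TEB basal cells, 15.7% and 17.1% had a UMI (7.83% and 6.10% thinned), and 2 and 0 cells had 10 or more. In duct, 34 of the 70 UMIs came from 1 cell of fragment D51. Median depths were 21458, 23039 and 43900.5 UMIs per cell. Such intervals cover counting error alone.

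In plates, free RNA and swapped tags can give a gene a few UMIs in wells whose cell does not make it, and the number to be reckoned with was estimated for each class from markers of fibroblasts and myeloid cells found in epithelial cells. In nipple basal cells 4865 *Slpi* UMIs were counted against 79.9 estimated. In TEB basal cells 17 were counted against 37.5 estimated, so that no level above this background was measured there. Duct basal cells had 70 against 10.02.

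Nipple skin could add keratinocytes, since it is covered by stratified epidermis. In nipple basal cells 5 of the 9 suprabasal epidermal markers measured had any UMI, *Krt1*, *Lor*, *Ivl* and *Calm4* were at 0, and the summed level was 41.3 to 189 CPM against 32.1 to 181 in duct and 112 to 198 in TEB. The 73 nipple basal cells with no suprabasal marker UMI had 1961 CPM of *Slpi* when pooled, and the 24 with any had 2988. These markers cannot show keratinocytes of the basal epidermal layer, which share basal markers such as *Krt5* and *Krt14*. The part of such cells was not tested. Neutrophil markers, where SLPI's best-known target elastase belongs, stayed at 0 to 9.17 CPM in nipple basal cells, with *S100a9* and *Mmp8* at 0.

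**Figure D2:**
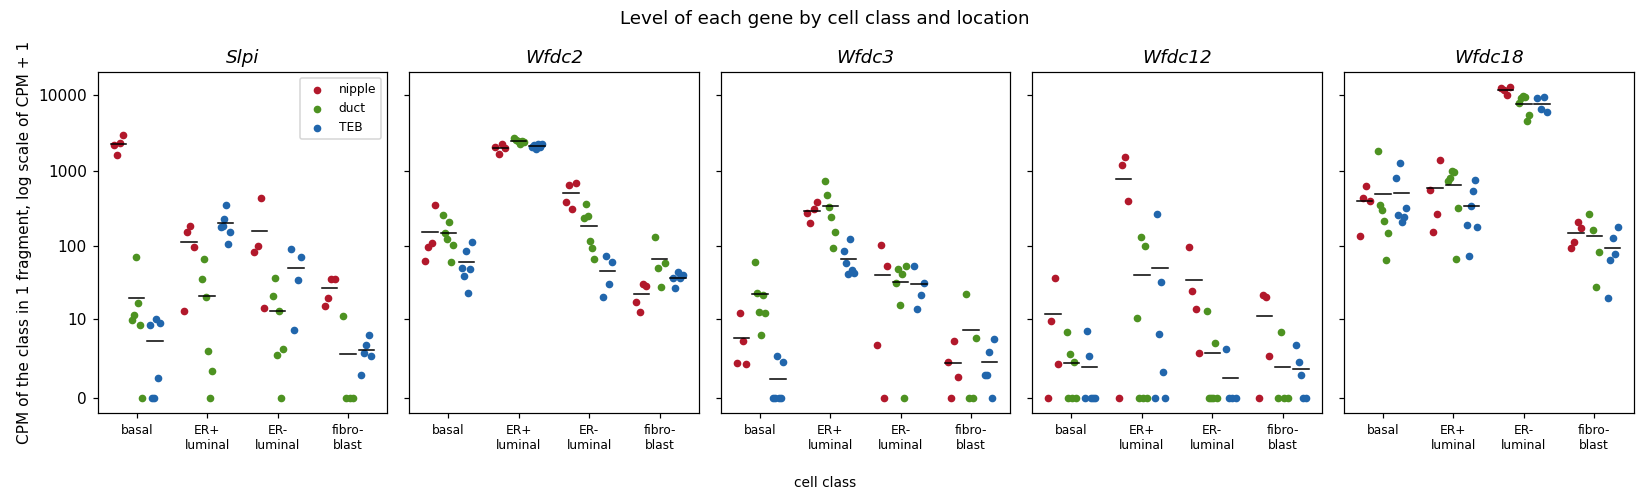
CPM of each gene in 1 cell class of 1 fragment (points; vertical axis on a log scale of CPM + 1) by class, for nipple, duct and TEB, with black bars at the means. *Slpi* in nipple basal cells (1597 to 2997) stands above all other points of that gene, and *Wfdc18* in ER- luminal cells (4468 to 12608) above all others of that gene.

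In ER+ luminal cells the order of *Slpi* was different from that in basal cells. It was 107 to 349 CPM in TEB with a median of 183 (201 ± 82.7, SD, n = 6), 12.9, 152, 187 and 95.7 CPM in the 4 nipple fragments (112 ± 76.1, SD, n = 4) and 0 to 66.4 CPM in duct with a median of 11.7 (21.2 ± 26.2, SD, n = 6). All TEB fragments lay above all duct fragments, while nipple overlapped both. Even so, the difference was not called: duct minus TEB was -3.18 in log2 (95% interval -4.98 to -1.38, adjusted p = 0.085, edgeR). With the DESeq2 test, with thinned cells and with finer clusters it passed (adjusted p = 0.0157, 0.00109 and 0.0329), and over the alternative settings the adjusted p ran from 0.00109 to 0.125. Without single fragments it ran from 0.0457 (without D32) to 0.170. Neither nipple minus duct (2.35, adjusted p = 0.248, edgeR) nor nipple minus TEB (-0.84, adjusted p = 0.689, edgeR) was called.

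Few ER+ cells carried the TEB signal. Of 172 TEB ER+ cells, 34.9% had an *Slpi* UMI (17.4% thinned), 18 had 10 or more, and 3 cells held 43.7% of the 1485 UMIs. In duct, 13.7% of 211 cells had a UMI, and 3 of them held 71.4% of 168 UMIs. The estimate from other wells was 69.9 UMIs for TEB, 35.2 for duct and 99.6 of 223 for nipple, where 61.2% of fibroblasts also had an *Slpi* UMI (17.2% thinned, against 25.6% of nipple ER+ cells). Both ER+ clusters took part in TEB: in 4 fragments with enough cells of each, *Slpi* was 30.8 to 300 CPM in the cluster led by *Sprr1a* and 53.3 to 274 CPM in that led by *Krt4*.

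In ER- luminal cells *Slpi* was 84.2, 100, 431 and 14.3 CPM in the nipple fragments (157 ± 186, SD, n = 4), 0 to 37.1 with a median of 8.20 in duct (12.9 ± 14.3, SD, n = 6) and 90.7, 6.88, 35.2 and 71.9 in TEB (51.2 ± 37.4, SD, n = 4). The nipple level was called higher than the duct level (log2 difference 3.67, SE 0.89, adjusted p = 0.0316, edgeR), although the groups overlapped. That call rested on few molecules. N21, N22, N23 and N24 had 21, 24, 187 and 5 UMIs, where 7.12, 6.61, 17.7 and 22.3 were estimated from other wells. A single cell of N23 held 174 of the 237 nipple UMIs, without N23 the difference was 2.43 (adjusted p = 0.227), and it also failed without D31, D51, D52, D62, N21, N22, T34 or T42 (adjusted p = 0.0564 to 0.0989) and when fragments with fewer than 10 ER- cells were dropped (3.49, adjusted p = 0.190). Neither nipple minus TEB (1.73, adjusted p = 0.359, edgeR) nor duct minus TEB (-1.94, adjusted p = 0.443, edgeR) was called. Basal markers summed to 1721 to 3324 CPM in nipple ER- cells against 208 to 671 in duct and 35.8 to 188 in TEB, and their part in this difference was not tested.

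*Wfdc2* was high in ER+ luminal cells at every location. It was detected in 425 of 426 ER+ cells, at a median of 77.5 UMIs per cell. The nipple fragments had 2081, 1649, 2233 and 1990 CPM (1988 ± 247, SD, n = 4), the duct fragments 2284 to 2678 with a median of 2441 (2459 ± 131, SD, n = 6) and the TEB fragments 1960 to 2265 with a median of 2139 (2134 ± 123, SD, n = 6). Duct lay above nipple and TEB with no overlap, by small amounts. Nipple minus duct was -0.34 in log2 (interval -0.53 to -0.14, adjusted p = 0.0551, edgeR) and duct minus TEB 0.25 (interval 0.08 to 0.42, adjusted p = 0.151, edgeR), neither called. The former passed without the filter on low counts, with thinned cells and with finer clusters (adjusted p = 0.0364, 0.0312 and 0.0292), and also without any of D52, N23, T31, T33, T34 or T43 (adjusted p = 0.0244 to 0.0473). For nipple minus TEB the interval was -0.28 to 0.10, so a change beyond these sizes was not seen.

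By description, *Wfdc2* also varied between the pair of ER+ clusters. Within the 12 fragments with at least 5 cells of each, it was higher in the *Sprr1a* cluster in 10, with medians of 2682 and 2058 CPM. In duct that cluster had 2709 to 3612 CPM, above its 1978 to 2655 CPM in TEB and its 2023 and 2096 CPM in nipple. *Sprr1a* cluster cells made up 16 of 43 nipple, 104 of 211 duct and 113 of 172 TEB ER+ cells.

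In ER- luminal cells *Wfdc2* fell from nipple over duct to TEB, with the smallest adjusted p of all member tests by location. It was 389, 647, 313 and 691 CPM in nipple (510 ± 187, SD, n = 4), 68.1 to 358 with a median of 176 in duct (187 ± 112, SD, n = 6) and 20.1, 74.3, 30.8 and 60.7 in TEB (46.5 ± 25.3, SD, n = 4). Nipple did not overlap with TEB, and duct overlapped with both. Nipple minus TEB was 3.51 in log2 (SE 0.47, adjusted p = 1.6e-05, edgeR), nipple minus duct 1.53 (SE 0.38, adjusted p = 0.0291, edgeR) and duct minus TEB 1.97 (SE 0.43, adjusted p = 0.0119, edgeR). Of all genes tested in ER- cells, 4.65%, 1.66% and 1.43% were called in these comparisons.

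The nipple level stood above the estimate for other wells and the others did not. However, the markers behind this estimate included *Cd14*, at 312 CPM in ER- cells, 131 in ER+ cells and 14.7 in basal cells. *Lyz2*, another of these markers, was at 11.2, 12.8 and 36.7 CPM in the same classes. Myeloid markers summed to medians of 227, 496 and 323 CPM in nipple, duct and TEB ER- cells. If ER- or ER+ cells make *Cd14* themselves, the estimate for that class is too high, which was not tested. For ER- cells the estimate therefore cannot decide whether the duct and TEB levels are background. Nipple ER- cells had 629 *Wfdc2* UMIs against 57.0 estimated, duct 440 against 507 and TEB 105 against 138, so the duct against TEB difference lay between levels at or under the estimate. Of 48 nipple ER- cells, 77.1% had a UMI (63.8% thinned) and 18 had 10 or more. Of duct and TEB ER- cells, 88.8% and 79.6% had a UMI, but in thinned cells 58.8% and 22.4%, where fibroblasts had 39.5% in duct and 25.5% in TEB. ER+ markers summed to 91.8 to 289 CPM in nipple ER- cells, 183 to 592 in duct and 119 to 262 in TEB. Fibroblast markers summed to 906 to 1527 CPM in nipple ER- cells against 128 to 344 in duct and 119 to 289 in TEB, and basal markers were higher there too, as given for *Slpi*, while nipple basal cells themselves had 62.2 to 353 CPM of *Wfdc2*. The nipple against TEB call passed without any single fragment (adjusted p = 3.5e-06 to 0.000315). The nipple against duct call failed without D52, D61, N22 or N24 (adjusted p = 0.0620 to 0.122), and the duct against TEB call failed without T32, T34 or T42 (adjusted p = 0.0503 to 0.0558). With fragments of at least 10 cells only T33 was left in TEB, a lone sample assumed to vary like the others (1.56, adjusted p = 1).

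In basal cells *Wfdc2* was low, at 62.2, 96.7, 110 and 353 CPM in nipple, 60.3 to 257 in duct and 23.1 to 113 in TEB. The groups overlapped, and N24 stood apart, with 163 UMIs in 1 cell. Nipple minus TEB was 1.48 in log2 (SE 0.42, adjusted p = 0.0115, edgeR) and duct minus TEB 1.41 (SE 0.39, adjusted p = 0.0150, edgeR), where 18.7% and 10.4% of all genes tested were called. Without N24 the first was 0.70 (adjusted p = 0.297), without D31 the second was 1.20 (adjusted p = 0.0540), and with thinned cells neither passed (adjusted p = 0.514 and 0.245). With fragments of at least 10 cells the second was 1.40 (adjusted p = 0.05003). Summed over fragments, duct and TEB basal cells had 397 and 255 UMIs against 447 and 506 estimated from other wells. Those sums were not above background, though T42 and T43 held most of the TEB estimate (112 and 328). D52 (74 against 36.6), D61, D62, T32 and T33 (34 against 15.4) were above their estimates, and the other duct and TEB fragments under theirs. The nipple fragments had 33, 63, 48 and 197 UMIs against 16.7, 9.33, 26.0 and 29.5.

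The nipple against TEB difference of *Wfdc2* varied by class. It was smaller in ER+ than in ER- cells by 3.57 in log2 (SE 0.63, adjusted p = 0.0104, edgeR with a term for fragment, 14 fragments), and smaller in basal than in ER- cells by 1.95 (SE 0.54, adjusted p = 0.0460). Of all genes, 2.30% and 2.12% were called in these tests, and 6.42% between basal and ER+ cells, where *Wfdc2* was not (1.45, adjusted p = 0.150, edgeR) but passed without the fragment term (1.61, adjusted p = 0.0484). The first passed without any single fragment (adjusted p = 0.00907 to 0.0335). The second did not pass without the fragment term (adjusted p = 0.268) or without D31, N21, N22, N23, T32, T33, T34 or T42 (adjusted p = 0.0501 to 0.161). These were the 2 calls among 12 tests of class by location for members, *Slpi* in basal cells left out.

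**Figure D3:**
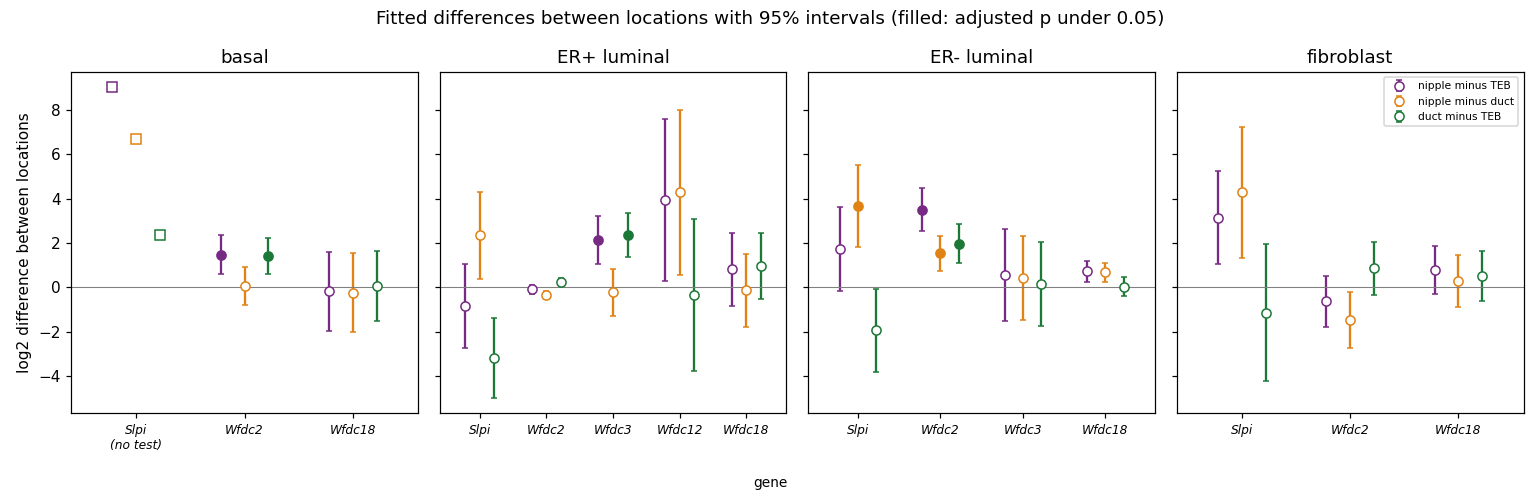
Fitted log2 difference (vertical axis) between locations for each gene that passed the filter on low counts, by cell class, with 95% intervals, filled where adjusted p was under 0.05. *Slpi* in basal cells is drawn as squares without intervals because these values chose the gene. *Wfdc2* differs in ER- cells by 3.51 between nipple and TEB and in ER+ cells by -0.09.

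*Wfdc3*, a family member whose function is little studied, was lowest in TEB among ER+ luminal cells. It was 274, 203, 309 and 386 CPM in nipple (293 ± 76.0, SD, n = 4), 95.3 to 735 with a median of 286 in duct (340 ± 237, SD, n = 6) and 42.7 to 126 with a median of 53.2 in TEB (67.5 ± 33.01, SD, n = 6). Nipple and TEB did not overlap, while duct reached into the TEB range at its lower end. Both differences to TEB were called, 2.15 for nipple (SE 0.50, adjusted p = 0.0204, edgeR) and 2.38 for duct (SE 0.46, adjusted p = 0.0173, edgeR). Of all genes tested in ER+ cells, 5.56% and 1.69% were called. Without N24 the nipple call failed (1.96, adjusted p = 0.0634), and the duct call passed without any single fragment (adjusted p = 0.00399 to 0.0470).

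The share of ER+ cells with a *Wfdc3* UMI was 55.8% in nipple, 67.8% in duct and 25.6% in TEB (37.2%, 47.4% and 11.6% thinned). TEB held more cells of the *Sprr1a* cluster, so the level was read in each cluster. In the *Sprr1a* cluster it was 88.6 to 881 CPM in 6 duct fragments and 3.21 to 48.9 in 4 TEB fragments, with no overlap. The 2 nipple fragments with enough cells had 43.7 and 137 CPM in that cluster, the lower inside the TEB range. In the *Krt4* cluster, which *Wfdc3* helps lead, it was 106 to 731 CPM in duct, 27.9 to 150 in TEB and 331 and 456 in 2 nipple fragments. Duct had 2595 UMIs against 262 estimated from other wells, and TEB had 492 against 24.5.

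Within duct the D31 and D32 fragments were highest, at 735 and 483 CPM, and D61 lowest at 95.3. ER- luminal cells had less *Wfdc3*, with nipple at 40.7 ± 49.1 CPM (SD, n = 4), duct at 32.4 ± 20.9 (SD, n = 6) and TEB at 30.4 ± 17.3 (SD, n = 4), and no difference was called (adjusted p = 0.847, 0.924 and 0.987, edgeR). The interval for nipple minus TEB, -1.51 to 2.63 in log2, leaves room for large changes. Basal cells and fibroblasts had too few UMIs of it to pass the filter.

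*Wfdc12* was carried by a small number of cells. Of 426 ER+ luminal cells 46 had a UMI and 14 had 10 or more, 8 of these from nipple. The nipple fragments had 0, 1189, 1509 and 391 CPM in ER+ cells (772 ± 697, SD, n = 4), duct 0 to 134 with a median of 5.13 (40.5 ± 59.9, SD, n = 6) and TEB 0 to 263 with a median of 3.60 (50.5 ± 105, SD, n = 6). High nipple values came from N22, N23 and N24, and N21 had none. Fitted differences of 3.94 (nipple minus TEB) and 4.29 (nipple minus duct) were not called (intervals 0.29 to 7.60 and 0.56 to 8.01, adjusted p = 0.232 and 0.277, edgeR).

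In nipple 3 cells held 69.8% of the 1490 *Wfdc12* UMIs, and in TEB 1 cell of T32 held 209 of 342. The same nipple cells often carried *Slpi*: 8 of 43 had at least 10 UMIs of *Wfdc12*, 7 had at least 10 of *Slpi* and 5 had both. In TEB 1 of 172 cells had both, with 3 at that level of *Wfdc12* and 18 of *Slpi*, and in duct none of 211 did. All 6 cells with both lay in the *Krt4* cluster and came from N22, N23, N24 and T32. This pairing was noticed in the data and was not tested. The threshold of 10 UMIs was not adjusted for depth. The 5 nipple cells had 46756 to 93979 UMIs in all, against a median of 45998 over nipple ER+ cells. Suprabasal markers in ER+ cells were 593 to 917 CPM in nipple, 534 to 1220 in duct and 576 to 997 in TEB, with *Krt1* and *Ivl* at 0 in nipple. Most of this sum was *Krt6a*, at 678 CPM over ER+ cells, against 38.5 for *Sbsn* and 25.5 for *Krt10*. *Krt6a* was among the leading genes of the *Sprr1a* cluster.

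*Wfdc18* was the most abundant member, and marked ER- luminal cells so strongly that every one of the 177 had at least 16 UMIs. It reached 12380, 11542, 10002 and 12608 CPM in nipple (11633 ± 1180, SD, n = 4), 4468 to 9847 with a median of 8431 in duct (7666 ± 2223, SD, n = 6) and 9046, 6498, 9395 and 5939 in TEB (7720 ± 1754, SD, n = 4). Nipple lay above duct and TEB with no overlap, and duct and TEB overlapped. Neither difference was called, at 0.72 for nipple minus TEB (interval 0.23 to 1.20, adjusted p = 0.0917, edgeR) and 0.68 for nipple minus duct (interval 0.25 to 1.12, adjusted p = 0.137, edgeR). With DESeq2 (adjusted p = 0.0219 and 0.0240) and without the filter on low counts (adjusted p = 0.0222 and 0.0311) both passed, and without D61 the first did (adjusted p = 0.00839). Duct minus TEB was 0.04 (interval -0.40 to 0.48).

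Outside ER- cells *Wfdc18* was found at low counts in nearly all cells. It had a UMI in 92.2% of basal cells, 94.4% of ER+ cells and 91.7% of fibroblasts, at a median of 5, 6 and 4 UMIs. In nipple fibroblasts 727 UMIs were counted against 504 estimated, and in ER+ cells 1369, 4640 and 2230 in nipple, duct and TEB against 323, 1859 and 612. Basal cells had 3636 against 1257. Some cells stood well above that, with up to 503 UMIs in an ER+ cell of N24 and 313 in a basal cell of T33. No difference between locations was called in basal cells, ER+ cells or fibroblasts (adjusted p = 0.655 to 0.974, edgeR). In basal cells the interval of nipple minus TEB was -1.95 to 1.60 in log2, too wide to speak of equal levels. Within ER+ cells it was higher in the *Krt4* than in the *Sprr1a* cluster in 10 of 12 fragments (medians 620 and 163 CPM). At resolution 1 the *Krt4* cluster held 169 instead of 193 cells. A group of 24 cells, led by *Cldn8*, *Krt4* and the ER- marker *Aldh1a3*, was then left unnamed. Whether such cells carry this difference was not tested.

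**Figure D4:**
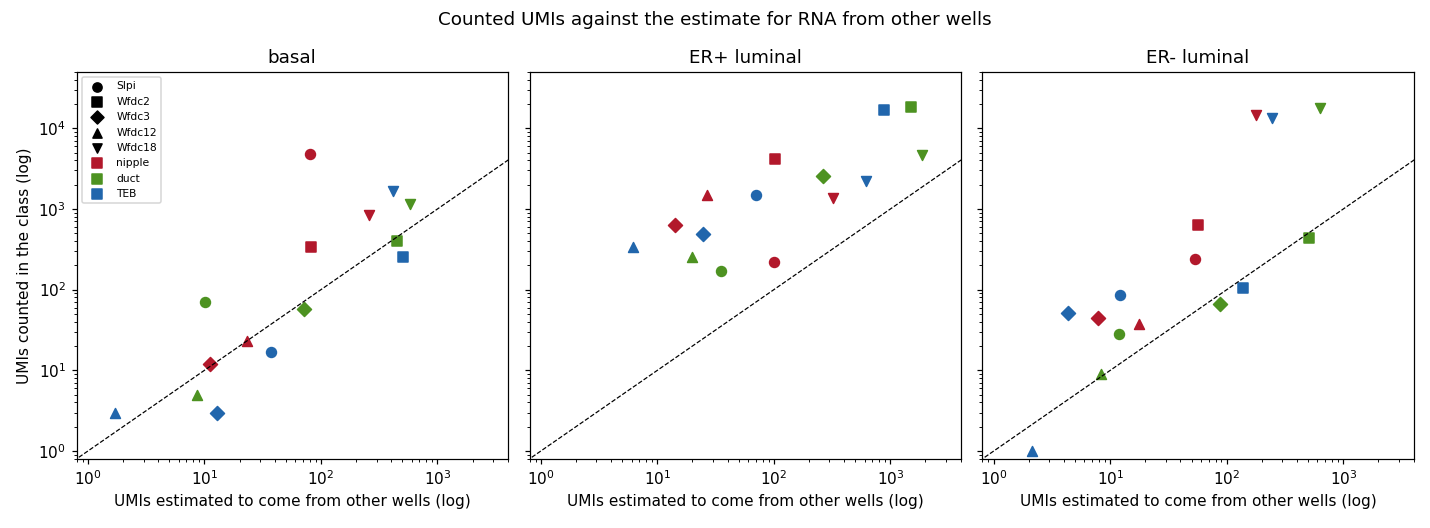
UMIs counted in a class (vertical axis, log) against UMIs estimated to come from other wells (horizontal axis, log), with 1 point for each gene and location and a dashed line where the 2 are equal. *Wfdc2* in nipple ER- cells (629 against 57.0) lies above the line, whereas in duct (440 against 507) and TEB (105 against 138) it lies on or under it. For ER- and ER+ cells the estimate may be too high, since *Cd14* was among its markers.

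In fibroblasts the members stayed near the estimate from other wells. *Slpi* was 15.5 to 36.3 CPM in nipple and 0.980 to 5.72 in TEB without overlap, but the 132 nipple UMIs were fewer than the 152 estimated. Of 9 member tests none was called by edgeR, 3 had an unadjusted p under 0.05, and DESeq2 called 1 (*Slpi*, nipple minus TEB, 3.18, adjusted p = 0.0170). Of all genes edgeR called 1.54% for nipple minus TEB, 0.200% for nipple minus duct and 0.271% for duct minus TEB. In the myeloid cells of 7 fragments *Wfdc18* was 109 ± 33.3 CPM and *Slpi* 13.3 ± 15.1 (SD, n = 7), which were not tested.

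Counted over classes, members were called in 2 of 6 tests in basal cells (*Wfdc2* both times), 2 of 15 in ER+ cells (*Wfdc3*), 4 of 12 in ER- cells (*Wfdc2* in 3 and *Slpi* in 1) and 0 of 9 in fibroblasts. Of all genes, 18.7%, 6.29% and 10.4% were called in basal cells for nipple minus TEB, nipple minus duct and duct minus TEB. In the same order, 5.56%, 1.98% and 1.69% were called in ER+ cells and 4.65%, 1.66% and 1.43% in ER- cells. In fibroblasts these shares were 1.54%, 0.200% and 0.271%. Members that passed the filter on low counts were 3 of 5 in basal cells, 5 in ER+ cells, 4 in ER- cells and 3 in fibroblasts.

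The genes whose levels were most like each member over 66 class and fragment sums, by Pearson's r of log2(CPM + 1) among 8560 genes, followed the leading class. For *Wfdc2* they were *Fam25c* (r = 0.87), *Hp*, *Cyp3a57*, *Cd200* and *Prom1*, a marker of ER+ cells. For *Wfdc3* they were *Hp* (0.82), *Aqp5*, *Wfdc2* itself (0.80), *Krt19* and *Tmprss2*. For *Wfdc18* they were *3110079O15Rik* (0.93), *Cited4*, *Atp6v1b1*, *Ltf*, the iron-binding lactoferrin of milk, and *Slc5a8*. *Slpi* and *Wfdc12* had no close match, the highest being *Gcnt2* (0.57) and *Muc13* (0.53). Between members r was 0.80 for *Wfdc2* with *Wfdc3* and at most 0.41 for any other pair. The sums share fragments and depth, so these are descriptions.

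Of 23 WAP family genes listed, 12 were in the table, and the 7 beyond the members had few UMIs except *Wfdc17*. *Wfdc17*, the neighbour of *Wfdc18*, had 1983 UMIs of which 89.0% were in myeloid cells, so that adjacent genes were read in different cell classes. *Wfdc1* had 170 UMIs, 81.2% in fibroblasts. *Wap*, the whey acidic protein of milk that names the family, had 8 UMIs, all in ER- cells. *Wfikkn2* had 41, *Wfikkn1* 30, *Wfdc15b* 9 and *Wfdc13* 8 UMIs.

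Of 34 other genes listed from protease inhibitor families, 33 were in the table. Whether each of these proteins inhibits a protease was not examined. In basal cells both directions occurred. Of 15 tested between nipple and TEB in basal cells, 3 were higher and 3 lower in nipple, with a median log2 difference of 0.52 against -0.05 over all genes, of which 8.90% were called higher and 9.81% lower. *Serpinb11* had 268 ± 90.0 CPM in TEB basal cells (SD, n = 6) and 0 UMIs in nipple, a count that allows up to 1.38 CPM (adjusted p = 2.1e-11, edgeR). *Serpine2*, an inhibitor of thrombin and urokinase, had 309 ± 145 in TEB and 7.89 ± 3.35 in nipple (log2 difference -5.08, adjusted p = 3.5e-08, edgeR), and *Serpinf1* 451 ± 55.2 against 87.3 ± 22.7, the latter with 189 UMIs against 222 estimated from other wells. Nipple basal cells were low in these 3 listed genes against TEB. Duct basal cells, low in *Slpi*, had 10.5 ± 9.27 CPM of *Serpine2*, 60.6 ± 40.3 of *Serpinf1* and 65.1 ± 24.3 of *Serpinb11* (SD, n = 6). In ER+ cells 1 of 19 was higher in nipple and 2 lower (all genes 2.60% and 2.96%), among the latter *Itih2*, with 180 ± 41.0 CPM in TEB and 0.867 ± 1.73 in nipple (adjusted p = 1.4e-09, edgeR). In ER- cells 3 of 15 were higher in nipple and 0 lower (all genes 3.09% and 1.55%), with a median of 0.65 against -0.03 over all genes. These included *Timp1*, a metalloproteinase inhibitor (191 ± 25.9 against 11.4 ± 16.1 CPM, log2 difference 4.41, adjusted p = 0.000184, edgeR; TEB with 15 UMIs against 23.2 estimated from other wells) and *Cstb* (0.96). In fibroblasts 1 of 21 was higher (all genes 1.11% higher and 0.436% lower), again *Cstb* (0.98).

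Serine proteases were represented by 27 of 30 listed genes, of which 8 were tested in basal cells. *Prss23* was 411 ± 127 CPM in nipple and 59.3 ± 27.4 in TEB basal cells (log2 difference 2.95, adjusted p = 1.3e-07, edgeR), and *Plat*, the tissue plasminogen activator, 59.8 ± 10.5 against 16.1 ± 11.5 (2.05, adjusted p = 0.00825, edgeR). For nipple minus TEB none of the 8 was called lower by edgeR, and their median was 0.18, while for nipple minus duct 1 was called lower and the median was -0.65. Between nipple and TEB edgeR called 0 of 13 in ER+ cells (6 at an unadjusted p under 0.05, 1 by DESeq2) and 0 of 8 in ER- cells (1 and 0). In fibroblasts 1 of 7 was higher, *Htra1* (1.06).

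The 5 genes listed as SLPI partners, not all of them known to bind it directly, were in the table and tested in every class. Between nipple and TEB 2 of 5 were higher in basal cells (all genes 8.90%), though the median of the 5 was -0.12, 2 of 5 were higher in ER- cells (all genes 3.09%) and 2 of 5 lower in ER+ cells (all genes 2.96%). *Anxa2* and *S100a10*, which form a membrane heterotetramer that binds plasminogen activator, were higher in nipple than in TEB in basal cells (log2 differences 1.39 and 0.54) and in ER- cells (1.67 and 1.60, adjusted p = 1.0e-07 and 7.5e-08, edgeR). In basal cells they were 1720 ± 96.9 and 3061 ± 323 CPM in nipple, and 1969 ± 201 and 3107 ± 261 in duct. Between nipple and duct 0 of 5 partners were called in basal cells (all genes 6.29%). In ER- cells 2 of 5 were higher in nipple (1.66% of all genes called). *Grn*, the progranulin whose cleavage SLPI prevents, and *Plscr1* were lower in nipple than in TEB in ER+ cells (-1.07 and -1.54, adjusted p = 0.0081 and 0.0249, edgeR). In fibroblasts 0 of 5 partners were called by edgeR, with 0 at an unadjusted p under 0.05 and 0 by DESeq2.

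Of 18 listed secreted mucosal defence proteins, 17 were in the table, but few passed the filter on low counts. *Lcn2*, an iron-sequestering lipocalin, was the 1 tested in basal cells, at 1615 ± 269 CPM in nipple, 1350 ± 279 in duct and 740 ± 356 in TEB (nipple minus TEB 1.28, adjusted p = 0.0102, edgeR). In ER+ cells 1 of 6 was higher in nipple than in TEB, and edgeR called 0 of 4 in ER- cells (1 at an unadjusted p under 0.05, 1 by DESeq2) and 0 of 4 in fibroblasts (0 and 0).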

How the data were processed

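Cells of single nipple, duct and TEB fragments were sorted by FACS into 96-well plates with spike-ins, and 3' SMART-seq libraries with UMIs were made. Per the labels the authors trimmed reads with Trim Galore, checked them with FastQC, and used UMI-tools, STAR and featureCounts with the mm10 build. The deposited file holds UMI counts per gene and cell, not normalized. Versions and strand settings were not given in the sources used here. The table holds 1419 cells, all with distinct fragment and well names.

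Cells with at most 5% spike-in counts, 5000 to 120000 UMIs and 200 to 6000 genes were kept and clustered with Seurat 5.3.0 (2000 variable genes less WAP family genes, 14 components, resolution 0.5). No doublet caller was run, since each well received 1 sorted cell. Clusters were named from fixed markers. Counts were summed per class and fragment (at least 5 cells), filtered with filterByExpr, and tested with edgeR 4.0.16 (TMM, quasi-likelihood, locations in 1 fit per class; Benjamini-Hochberg over all genes of a comparison). Class by location was fitted with a term for fragment. Sums held 89639 to 2061534 UMIs. RNA from other wells was taken as the median over cells of the share of foreign markers relative to all cells of the fragment. Thinning to 5000 UMIs left out 1 nipple cell. The code was tested on simulated data. Alternatives were RLE factors, DESeq2 1.42.0, no filter, thinned cells, fragments with at least 10 cells, other clusterings, a replicate block and leaving out each fragment. Intervals use the fit's degrees of freedom.

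The members and gene lists were chosen with earlier results of these data known. Named genes are the members, the 5 most like each, the other family genes counted, and of each list the 3 with the largest nipple against TEB difference in a class among called genes with at least 50 CPM. Listed genes without a row were not analysed here.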

Additional observations from a re-analysis of the deposited data

Results flagged for a closer look

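Fragments were compared within their location for each gene and class that passed the filter. In 5 of 45 such groups 1 fragment lay far from the others, where chance gives about 1 in 20. *Slpi* in duct basal cells was 72.3 CPM in D51 and 0 to 16.9 in the other 5. *Wfdc2* in nipple basal cells was 353 CPM in N24 and 62.2 to 110 in the other 3. *Wfdc18* in duct basal cells was 1836 CPM in D31 and 64.3 to 356 in the other 5, with 291 of its UMIs in 1 cell. *Wfdc12* in TEB ER+ luminal cells was 263 CPM in T32 and 0 to 32.5 in the other 5. *Slpi* in duct fibroblasts was 11.2 CPM in D32, from 1 UMI, and 0 in the other 3.

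The nipple against TEB difference of *Wfdc2* differed between classes by the fit with a term for class and location. It was lower in ER+ than in ER- luminal cells by 3.57 in log2 (coded -3.57) and lower in basal than in ER- luminal cells by 1.95 (coded -1.95), the latter not holding without single fragments as given above.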

How the results depend on the processing

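The counts of called member tests moved with the processing. In basal cells 2 calls became 0 with thinned cells and 1 with fragments of at least 10 cells, in ER+ luminal cells 2 became 4 with thinned cells and 4 at resolution 1, in ER- luminal cells 4 became 2 with fragments of at least 10 cells, which left T33 as the lone TEB fragment, and in fibroblasts 0 became 1 with DESeq2. Leaving out 1 fragment gave 1 to 3 calls in basal, 1 to 3 in ER+, 2 to 4 in ER- cells, 0 in fibroblasts and 1 to 2 for class by location. *Slpi* in basal cells kept its directions, with nipple minus TEB 7.58 with thinned cells and 8.62 to 9.57 without single fragments, where nipple minus duct ran from 6.40 to 8.01 and duct minus TEB from 1.02 to 2.89. Differences that were not called changed sign: *Wfdc2* in basal cells, nipple minus duct, -0.35 with thinned cells; *Wfdc18* in basal cells 0.18 (nipple minus TEB, at least 10 cells), 0.23 (nipple minus duct, thinned) and -0.33 (duct minus TEB, thinned), in ER+ cells 0.13 (nipple minus duct, at least 10 cells), in ER- cells -0.0514 (duct minus TEB, thinned) and in fibroblasts -0.28 (duct minus TEB, at least 10 cells); *Slpi* in ER- cells from -1.94 to 1.07 (duct minus TEB, at least 10 cells, T33 alone in TEB). Leaving out 1 fragment also turned the sign of differences that were not called. In basal cells *Wfdc2* ran from -0.72 to 0.36 (nipple minus duct), and *Wfdc18* from -0.49 to 0.29 (nipple minus TEB), -0.55 to 0.88 (nipple minus duct) and -1.06 to 0.51 (duct minus TEB). In ER+ cells *Wfdc3* ran from -0.43 to 0.15 (nipple minus duct), *Wfdc12* from -1.18 to 2.80 (duct minus TEB) and *Wfdc18* from -0.0891 to 1.18 (nipple minus TEB) and -1.05 to 0.13 (nipple minus duct). In ER- cells *Wfdc3* ran from -0.49 to 1.002 (nipple minus TEB), -0.64 to 0.84 (nipple minus duct) and -0.0978 to 0.57 (duct minus TEB), and *Wfdc18* from -0.0667 to 0.19 (duct minus TEB). *Wfdc18* in fibroblasts ran from -0.0671 to 0.80 (nipple minus duct). For class by location *Wfdc3* ran from -0.75 to 1.28 (basal less ER+), *Wfdc18* from -0.89 to 0.073 (basal less ER-) and -1.04 to 0.14 (ER+ less ER-), and *Wfdc12* from -2.67 to 0.18 (ER+ less ER-). The causes were not tested. Fragment numbers 31 and 32 occur in duct and TEB. Same-numbered fragments had r of -0.0147 to 0.00187, and pairs with different numbers -0.0164 to 0.0148. Fragments as few as these cannot tell whether a shared number means a shared animal or plate. Over those 4 fragments the replicate block changed member calls in basal cells from 0 to 2 and left ER+ cells at 3. Few cells per class and fragment limit what rare transcripts such as *Wfdc12* can show.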
